A study of Mus musculus with 17 samples.

Results

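The expression of 10 inflammatory and profibrotic cytokine genes was followed in cultured mouse lung cells labelled as primary fibroblasts, most of whose libraries held more macrophage than fibroblast marker RNA: Il1a, Il1b, Il1rn, Il6, Il11, Il18, Il33, Il10, Tnf and Lif. They were taken by gene name from a gene count table of 55421 genes, and all 10 were found. Of these, 9 passed a filter on low values (above 10 CPM, the read count scaled to library size, in at least 2 libraries), as did 10481 genes in all. Il10 did not pass. Total RNA was sequenced from primary cultures of 17 mice to ask how bleomycin and loss of the receptor tyrosine kinase Ephb4 alter the fibroblast transcriptome.

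All 17 mice, controls included, carried floxed Ephb4 alleles and the Col1a2-CreERT2 transgene on a C57BL/6J background, so that deletion was driven by a collagen promoter and limited to cells that express Col1a2. At 4 weeks of age, Ephb4 CKO mice received 4-hydroxytamoxifen (1 mg per day for 5 days) and Ephb4 control mice received corn oil. The drug and the deletion therefore cannot be told apart between these groups. At 6 weeks of age, bleomycin (1.2 U/kg) or PBS was given into the trachea, and lungs were taken 14 days later. The groups were Ephb4 control PBS (n = 4), Ephb4 control bleomycin (n = 4), Ephb4 CKO PBS (n = 5) and Ephb4 CKO bleomycin (n = 4), each library being the cells of 1 mouse grown in serum and passaged once, with no treatment in culture. The values are therefore of cells days after they left the injured lung, and mouse numbers below only name the libraries of a group.

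IL-1α and IL-1β (Il1a, Il1b) signal through the IL-1 receptor and MyD88 to NF-κB, and the IL-1 receptor antagonist (Il1rn) occupies the same receptor without signalling. TNF also acts through NF-κB, whereas IL-6, IL-11 and LIF share the receptor chain gp130 (Il6st) and act through JAK kinases and STAT3. IL-18 and IL-33 are further members of the IL-1 family, and IL-10 is an anti-inflammatory cytokine. In the lung, macrophages are a known source of IL-1, its antagonist and TNF, and fibroblasts of IL-6, IL-11 and LIF. IL-11 and IL-6 are known for promoting fibroblast activation and matrix production.

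The promoters of 4 genes are shown because these genes had the 4 largest edgeR fold changes between Ephb4 CKO and control after bleomycin. By these fold changes, Il1rn and Tnf were higher and Il6 and Il11 lower in Ephb4 CKO. The groups overlapped for Il6 and Il11. For Il11 the medians were close (2.42 CPM in Ephb4 CKO, 3.26 CPM in control), and Ephb4 control bleomycin mouse 1 held 158 CPM. The windows are from RefSeq (GRCm38.p6) and run from 250 bases before the transcription start to 50 bases after it, 5′ to 3′ on the gene's strand. Capitals mark matches to the NF-κB consensus, the AP-1 site TGANTCA, the cyclic AMP response element TGACGTCA or the TATA box TATAAA, searched on both strands. The Il1rn window lies at chr2:24336610-24336909 (plus strand), that of Tnf at chr17:35201958-35202257 (minus strand), that of Il6 at chr5:30012864-30013163 (plus strand) and that of Il11 at chr7:4782808-4783107 (minus strand).
Il1rn: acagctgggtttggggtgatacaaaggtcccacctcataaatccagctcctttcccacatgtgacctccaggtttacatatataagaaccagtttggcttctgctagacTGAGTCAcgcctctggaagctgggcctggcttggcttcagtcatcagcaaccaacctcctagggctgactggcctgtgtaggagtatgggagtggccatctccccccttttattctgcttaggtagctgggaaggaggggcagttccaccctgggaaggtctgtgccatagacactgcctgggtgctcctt
Tnf: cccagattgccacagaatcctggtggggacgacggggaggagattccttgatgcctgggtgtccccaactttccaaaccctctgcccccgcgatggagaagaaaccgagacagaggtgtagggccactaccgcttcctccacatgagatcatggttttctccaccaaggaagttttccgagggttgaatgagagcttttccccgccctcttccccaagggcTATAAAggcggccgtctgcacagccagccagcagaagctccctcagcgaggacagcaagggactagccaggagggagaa
Il6: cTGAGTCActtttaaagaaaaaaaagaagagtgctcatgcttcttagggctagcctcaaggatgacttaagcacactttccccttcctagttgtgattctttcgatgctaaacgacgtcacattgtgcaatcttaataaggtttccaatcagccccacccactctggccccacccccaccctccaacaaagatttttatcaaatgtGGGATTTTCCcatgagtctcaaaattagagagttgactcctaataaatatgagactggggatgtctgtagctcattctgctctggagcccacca
Il11: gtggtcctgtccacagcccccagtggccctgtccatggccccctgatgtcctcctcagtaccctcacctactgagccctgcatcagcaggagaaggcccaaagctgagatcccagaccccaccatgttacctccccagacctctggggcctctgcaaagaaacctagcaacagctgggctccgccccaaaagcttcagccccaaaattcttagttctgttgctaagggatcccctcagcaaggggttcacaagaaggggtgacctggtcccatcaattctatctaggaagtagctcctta
The Il6 window held an NF-κB match beginning at position -44 from the start and an AP-1 match at -249. The Il1rn window held an AP-1 match at -141, and the Tnf window a TATA box at -29. None of these letters was in the Il11 window at the gene's start, while a second Il11 window, 4718 bases into the gene, held an AP-1 match. Il1rn also had windows 8438 and 8518 bases into the gene. The nearer of them held no match, and the farther held a TATA box on the other strand. Of 32851 windows of the same length, 4.51% held the NF-κB consensus, 7.81% the AP-1 site, 1.79% the cyclic AMP response element and 13.6% the TATA box. A match is a description of letters and not a measured binding site.

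Library totals ranged from 66540022 to 120554468 counts. The labels call the cells primary fibroblasts, yet the summed CPM of 12 macrophage markers exceeded that of 10 fibroblast markers in 16 of 17 libraries, all except Ephb4 control bleomycin mouse 1 (1170 CPM against 9930 CPM). Such a sum is weighted to the most abundant markers. By mean log2 CPM, fibroblast markers were instead above macrophage markers in every Ephb4 control bleomycin library (8.17 to 8.97 against 4.06 to 7.59). The same held in Ephb4 control PBS mouse 3 (7.88 against 6.99). Fibroblast marker sums were 5650 to 11500 CPM in Ephb4 control bleomycin, 13.6 to 7230 CPM in Ephb4 control PBS, 30.4 to 1890 CPM in Ephb4 CKO PBS and 15.6 to 1500 CPM in Ephb4 CKO bleomycin. Col1a2, whose promoter drives the Cre, was as low as 0.981 CPM in Ephb4 control PBS and 1.89 CPM in Ephb4 CKO bleomycin, against 1750 to 3680 CPM in Ephb4 control bleomycin. Ephb4 itself was 2.32 to 33.4 CPM in Ephb4 control PBS, 13.1 to 65.1 CPM in Ephb4 control bleomycin, 4.01 to 23.6 CPM in Ephb4 CKO PBS and 4.93 to 14 CPM in Ephb4 CKO bleomycin, so the genotypes overlapped after PBS and, between 13.1 and 14 CPM, after bleomycin. In 3 libraries, which are mice 1 and 2 of Ephb4 CKO bleomycin and mouse 2 of Ephb4 control bleomycin, Xist and 4 Y-linked genes went against the labelled sex. These 3 are among 5 mice, spread over all 4 groups, whose animal numbers begin with the same 3 digits, and 2 numbers are each carried by 2 mice of different groups. All Ephb4 control bleomycin mice carry an animal number of the 12 series, as do 1 Ephb4 control PBS mouse and 2 mice of each Ephb4 CKO group. In these bulk libraries, fewer cells of a type and less RNA per cell cannot be told apart.

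**Figure D1:**
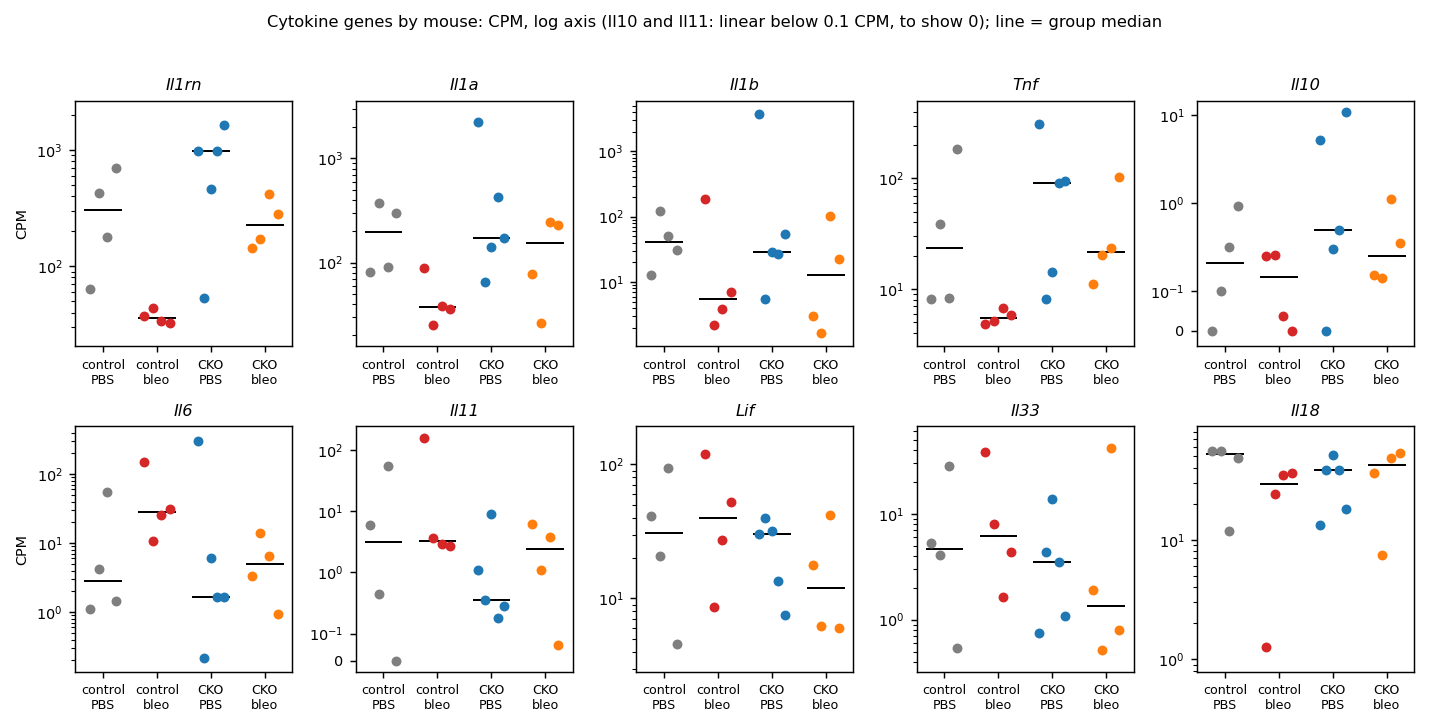
Each point is the CPM of a cytokine gene in 1 mouse (vertical axis, log scale, with a linear stretch below 0.1 CPM for Il10 and Il11 so that 0 can be drawn), by group on the horizontal axis ("bleo" is bleomycin), and the line is the group median. Il1rn in Ephb4 control bleomycin sits between 32.8 and 43.3 CPM, below every library of the other groups, while Il6, Il11, Lif and Il33 are spread by 1 or 2 high libraries in most groups.

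Across the 9 cytokine genes tested, no adjusted p reached 0.05 in any comparison, and neither did that of any other gene in the edgeR fit (Benjamini-Hochberg adjustment over the genes kept, background 0% of 10481 genes in each). At an unadjusted p under 0.05, 3 of 9 (Il1rn, Tnf and Il1a, all lower) passed for bleomycin against PBS in Ephb4 control, beside 14.3% of all genes tested. For Ephb4 CKO against control after bleomycin, 2 of 9 passed (Il1rn and Tnf, both higher), beside 20.2% of all genes. For Ephb4 CKO against control after PBS 0 of 9 passed, beside 1.99%, and for bleomycin against PBS in Ephb4 CKO 2 of 9 (Il1rn and Il1b, both lower), beside 0.964%. The interaction of genotype and bleomycin was passed by 0 of 9, beside 3.46% of all genes. The comparisons share groups, so their values are given side by side and are not independent of each other.

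**Figure D2:**
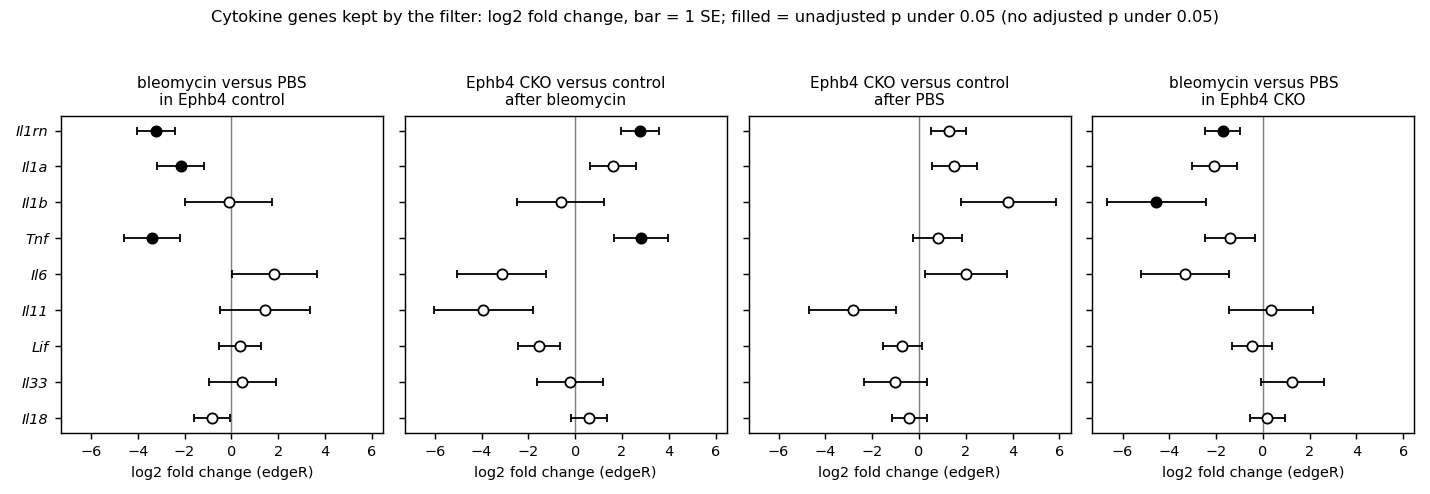
Points are edgeR log2 fold changes of the 9 cytokine genes tested (horizontal axis), bars are 1 SE, and filled points have an unadjusted p under 0.05. Il1rn stands at -3.21 and 2.77 in the first and second panels and Tnf at -3.40 and 2.80, while Il6 and Il11 lie on the opposite sides of 0 from them there, with wider bars.

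Il1rn, the antagonist of the IL-1 receptor, gave the clearest separation of groups. Its level in Ephb4 control PBS mice 1 to 4 was 63.6, 427, 178 and 695 CPM, and in Ephb4 control bleomycin mice 1 to 4 it was 37.4, 43.3, 33.7 and 32.8 CPM. In Ephb4 CKO PBS mice 1 to 5 it was 973, 53.8, 458, 985 and 1640 CPM, and in Ephb4 CKO bleomycin mice 1 to 4 it was 142, 170, 415 and 279 CPM. The Ephb4 control bleomycin libraries thus lay within a 1.32-fold range below all 13 others, whereas the other groups spread over 2.93-fold to 30.4-fold. The gene lies at chr2:24336853-24351494 (GRCm38, plus strand), in 6 exonic blocks.

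Bleomycin against PBS in Ephb4 control gave an edgeR log2 fold change of Il1rn of -3.21 ± 0.82 (SE, adjusted p = 0.268), and the groups did not overlap, as was true of 8.91% of all genes tested. An exact 2-sided permutation test on log2 CPM gave p = 0.0286, the smallest that 4 against 4 can give. Ephb4 CKO against control after bleomycin gave 2.77 ± 0.81 (adjusted p = 0.196 by edgeR), again without overlap, as in 23.1% of all genes tested. That comparison also gave an exact permutation p of 0.0286. DESeq2 called Il1rn in both comparisons (adjusted p = 0.00462 and 0.0159), also when the 2 ordered blocks of columns in the count table entered as a covariate, where the other 29 alternative fits, by edgeR and limma, gave adjusted p from 0.0682 to 1 and from 0.0794 to 0.999. DESeq2 called 166 and 399 of 10481 genes in these comparisons.

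The difference in Il1rn was recomputed in subsets of the libraries and with covariates. With the 3 libraries of discordant sex genes left out, the edgeR log2 fold changes were -3.28 (unadjusted p = 0.00624) and 3.28 (unadjusted p = 0.00962). Within the animals of the 12 series, Ephb4 CKO bleomycin mice had 142 to 170 CPM and Ephb4 control bleomycin mice 32.8 to 43.3 CPM, while the only Ephb4 control PBS mouse of that series had 63.6 CPM. The difference in mean log2 CPM for bleomycin against PBS in Ephb4 control was -0.80 in that series, against -2.72 over all libraries, and the 11 series held no Ephb4 control bleomycin mouse. With the number series as a covariate the fold changes were -1.90 (unadjusted p = 0.0374 by edgeR) and 1.96 (unadjusted p = 0.0165 by edgeR) on the log2 scale. With the macrophage score (mean log2 CPM of the macrophage markers) as a covariate they were -2.42 (unadjusted p = 0.0326 by edgeR) and 1.95 (unadjusted p = 0.0781 by edgeR), so that the second no longer passed. With the fibroblast score (mean log2 CPM of the fibroblast markers) they were -2.19 (unadjusted p = 0.0471 by edgeR) and 2.01 (unadjusted p = 0.0487 by edgeR).

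In the other comparisons Il1rn did not separate the groups. Ephb4 CKO against control after PBS gave 1.27 ± 0.74 (SE, adjusted p = 1 by edgeR), or 1.88 without Ephb4 control PBS mouse 4 (unadjusted p = 0.0364 by edgeR) and 1.57 without Ephb4 CKO PBS mouse 2 (unadjusted p = 0.0185 by edgeR). Bleomycin against PBS in Ephb4 CKO gave -1.71 ± 0.75 (SE, adjusted p = 1 by edgeR), or -1.28 without the libraries of discordant sex genes (unadjusted p = 0.238 by edgeR). No overlap between groups was seen in 0.248% and 0.0859% of all genes tested in these comparisons, and in 0 of 9 cytokine genes in either. The bleomycin effect on Il1rn did not differ detectably between genotypes (interaction 1.50 ± 1.04 on the log2 scale, adjusted p = 0.916 by edgeR).

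Tnf, the macrophage cytokine that signals through TNF receptors, had the same pattern as Il1rn at lower levels. It was 8.14, 39.1, 8.27 and 184 CPM in Ephb4 control PBS mice 1 to 4 and 4.87, 5.19, 6.75 and 5.84 CPM in Ephb4 control bleomycin mice 1 to 4. It was 312, 8.17, 14.4, 90.4 and 95.1 CPM in Ephb4 CKO PBS mice 1 to 5 and 11.1, 20.2, 23.4 and 103 CPM in Ephb4 CKO bleomycin mice 1 to 4. Every Ephb4 control bleomycin library was again below all others, although the nearest Ephb4 control PBS mice were little higher. The gene lies at chr17:35199381-35202007 (minus strand).

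For Tnf, edgeR gave -3.40 ± 1.19 (SE, adjusted p = 0.315) for bleomycin against PBS in Ephb4 control and 2.80 ± 1.16 (adjusted p = 0.224) for Ephb4 CKO against control after bleomycin. The exact permutation test on log2 CPM gave p = 0.0286 for both, at differences in mean log2 CPM of -2.23 and 2.27. That p is the smallest 4 against 4 can give, and any gene without overlap between the groups reaches it. Such genes were 8.91% and 23.1% of all genes tested. DESeq2 gave adjusted p = 0.0491 and 0.0802, and the 31 alternatives together ranged from 0.0491 to 1 and from 0.069 to 0.999. Without Ephb4 control PBS mouse 4 the first difference was -1.71 (unadjusted p = 0.119 by edgeR), and without Ephb4 CKO bleomycin mouse 4 the second was 1.69 (unadjusted p = 0.152 by edgeR). With the fibroblast score as a covariate the values were -0.15 and 0.31. Without the 3 libraries of discordant sex genes they were -3.34 and 3.40.

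Il1a, an IL-1 receptor agonist stored in cells and released on damage, was 82, 372, 90 and 302 CPM in Ephb4 control PBS mice 1 to 4 and 88.8, 25.2, 38.5 and 36.1 CPM in Ephb4 control bleomycin mice 1 to 4. It was 2220, 64.6, 140, 424 and 174 CPM in Ephb4 CKO PBS mice 1 to 5 and 78.2, 26.2, 245 and 228 CPM in Ephb4 CKO bleomycin mice 1 to 4. Ephb4 CKO PBS mouse 1 was 5.23-fold above the next library of its group, and only Ephb4 control bleomycin mouse 1 reached the PBS range in its genotype. The fold change was -2.17 ± 1.01 on the log2 scale (SE, adjusted p = 0.349 by edgeR) for bleomycin against PBS in Ephb4 control. Without the 3 libraries of discordant sex genes this contrast was -1.94 (unadjusted p = 0.101 by edgeR), and with the fibroblast score as a covariate it was -0.23. In Ephb4 CKO it was -2.07 ± 0.98 (adjusted p = 1 by edgeR), and -0.47 without Ephb4 CKO PBS mouse 1. Ephb4 CKO against control gave 1.61 ± 0.99 after bleomycin (adjusted p = 0.339 by edgeR) and 1.51 ± 0.95 after PBS (adjusted p = 1 by edgeR). The value after bleomycin was 2.08 without the libraries of discordant sex genes and -0.15 with the fibroblast score, and that after PBS was -0.08 without Ephb4 CKO PBS mouse 1.

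Il1b, the agonist that inflammasomes activate by cleavage, was 12.8, 121, 50 and 31.3 CPM in Ephb4 control PBS mice 1 to 4 and 186, 2.17, 3.86 and 7.02 CPM in Ephb4 control bleomycin mice 1 to 4. In Ephb4 CKO PBS mice 1 to 5 it was 3680, 5.46, 29.1, 27.3 and 54.6 CPM, and in Ephb4 CKO bleomycin mice 1 to 4 it was 3.04, 1.66, 102 and 22.7 CPM. Ephb4 CKO PBS mouse 1 was 67.4-fold above the next library of its group and Ephb4 control bleomycin mouse 1 was 26.4-fold above the next of its own. Each decided its group's mean. Bleomycin against PBS in Ephb4 CKO gave -4.55 ± 2.11 on the log2 scale (SE, unadjusted p = 0.0479, adjusted p = 1 by edgeR), and 0.14 without Ephb4 CKO PBS mouse 1. Ephb4 CKO against control after PBS gave 3.82 ± 2.03 (adjusted p = 1 by edgeR), and -0.89 without that mouse.

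Il1a and Il1b lie side by side on chromosome 2 (chr2:129299610-129309972 and chr2:129364570-129371139, both minus strand). Il1a shares 222 exonic bases with Gm14023 and Il1b 25 with the antisense gene Il1bos, both on the other strand, and reads were aligned with strand taken into account.

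The balance of antagonist and agonists was taken as Il1rn over the sum of Il1a and Il1b, each in CPM per kilobase of exon, a measure chosen after the values were seen. The ratio was 0.238, 0.306, 0.448 and 0.741 in Ephb4 control PBS mice 1 to 4 and 0.0475, 0.563, 0.283 and 0.27 in Ephb4 control bleomycin mice 1 to 4. It was 0.0576, 0.273, 0.962, 0.777 and 2.53 in Ephb4 CKO PBS mice 1 to 5 and 0.62, 2.17, 0.423 and 0.395 in Ephb4 CKO bleomycin mice 1 to 4. Both libraries with very high Il1b had the lowest ratios, which follows in part from Il1b being in the divisor. After bleomycin the ratio was 1.70 higher on the log2 scale in Ephb4 CKO than in control, with overlapping groups (exact 2-sided permutation p = 0.0857). Bleomycin against PBS in Ephb4 control gave -0.89 (exact permutation p = 0.4).

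Il6, the gp130 cytokine that fibroblasts make on IL-1 or TNF signalling, was 1.1, 4.16, 55.3 and 1.43 CPM in Ephb4 control PBS mice 1 to 4 and 152, 10.6, 25.9 and 31.3 CPM in Ephb4 control bleomycin mice 1 to 4. It was 306, 0.22, 6.07, 1.67 and 1.68 CPM in Ephb4 CKO PBS mice 1 to 5 and 3.39, 14, 6.46 and 0.951 CPM in Ephb4 CKO bleomycin mice 1 to 4. After bleomycin, 3 of 4 Ephb4 control libraries were above all Ephb4 CKO libraries. The median after bleomycin was 28.6 CPM without and 4.93 CPM with Ephb4 deletion, and after PBS it was 2.8 and 1.68 CPM.

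The edgeR log2 fold change of Il6 after bleomycin was -3.15 ± 1.90 for Ephb4 CKO against control (SE, adjusted p = 0.332), with an exact permutation p of 0.0571 on log2 CPM. It was -1.86 without Ephb4 control bleomycin mouse 1 and -0.43 with the macrophage score as a covariate. Bleomycin against PBS gave 1.83 ± 1.81 in Ephb4 control (adjusted p = 0.629 by edgeR), 4.64 without Ephb4 control PBS mouse 3 (unadjusted p = 0.0471 by edgeR), which held 55.3 CPM, and 0.55 without Ephb4 control bleomycin mouse 1. It gave -3.35 ± 1.88 in Ephb4 CKO (adjusted p = 1 by edgeR). The value in Ephb4 CKO was 1.37 without Ephb4 CKO PBS mouse 1, which held 306 CPM. After PBS, Ephb4 CKO against control gave 2.02 ± 1.76 (adjusted p = 1 by edgeR), -2.72 without that mouse, and 4.83 without Ephb4 control PBS mouse 3. The interaction of Il6 was -5.18 ± 2.59 (adjusted p = 0.916 by edgeR), and ranged from -7.97 without Ephb4 control PBS mouse 3 to -0.46 without Ephb4 CKO PBS mouse 1. The gene lies at chr5:30013114-30019981 (plus strand).

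Il11, a gp130 cytokine made by activated fibroblasts, was 5.83, 0.45, 55 and 0 CPM in Ephb4 control PBS mice 1 to 4 and 158, 3.59, 2.94 and 2.72 CPM in Ephb4 control bleomycin mice 1 to 4. It was 1.11, 0.356, 8.85, 0.177 and 0.285 CPM in Ephb4 CKO PBS mice 1 to 5 and 6.11, 1.1, 3.74 and 0.0587 CPM in Ephb4 CKO bleomycin mice 1 to 4. The medians after bleomycin were close, at 3.26 CPM for control and 2.42 CPM for Ephb4 CKO libraries, and the high mean of the control group came from mouse 1. The edgeR log2 fold change was -3.92 ± 2.12 for Ephb4 CKO against control after bleomycin (SE, adjusted p = 0.285), and -0.20 without that mouse. It was 1.69 with the macrophage score and 0.57 with the fibroblast score as a covariate. After PBS the same contrast of genotypes gave -2.83 ± 1.86 (adjusted p = 1 by edgeR), but 0.05 without Ephb4 control PBS mouse 3 (55 CPM, 9.44-fold above the next library) and -5.00 without Ephb4 CKO PBS mouse 3. The gene lies at chr7:4772373-4782859 (minus strand).

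Lif, a further gp130 cytokine, was 41.1, 20.6, 94.1 and 4.55 CPM in Ephb4 control PBS mice 1 to 4 and 120, 8.71, 27.4 and 52.7 CPM in Ephb4 control bleomycin mice 1 to 4. It was 30.5, 39.5, 31.7, 13.5 and 7.59 CPM in Ephb4 CKO PBS mice 1 to 5 and 17.8, 6.21, 41.7 and 5.99 CPM in Ephb4 CKO bleomycin mice 1 to 4. All groups overlapped, with medians from 12 to 40.1 CPM. Ephb4 CKO against control after bleomycin gave -1.54 ± 0.91 on the log2 scale (SE, adjusted p = 0.324 by edgeR), -0.75 without Ephb4 control bleomycin mouse 1 and 0.30 with the macrophage score as a covariate. Leaving out the 3 libraries of discordant sex genes, this contrast was -1.52 for Lif, -4.28 for Il6 and -4.89 for Il11. Lif lies at chr11:4257557-4272514 (plus strand).

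Il33, a nuclear alarmin of barrier and stromal cells that is released on injury, was 5.3, 4.05, 28.1 and 0.541 CPM in Ephb4 control PBS mice 1 to 4 and 38.5, 8.06, 1.62 and 4.34 CPM in Ephb4 control bleomycin mice 1 to 4. In Ephb4 CKO PBS mice 1 to 5 it was 0.743, 4.39, 13.8, 3.49 and 1.09 CPM, and in Ephb4 CKO bleomycin mice 1 to 4 it was 1.9, 0.516, 41.8 and 0.799 CPM. Each group had 1 library above 10 CPM. No contrast exceeded 1 SE, the largest being 1.26 ± 1.35 on the log2 scale for bleomycin against PBS in Ephb4 CKO (SE, adjusted p = 1 by edgeR). That value was -2.13 without Ephb4 CKO bleomycin mouse 3. Il33 lies at chr19:29925114-29960718 (plus strand).

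Il18, which inflammasomes also process, was 55.6, 55.2, 11.9 and 48.5 CPM in Ephb4 control PBS mice 1 to 4 and 1.26, 24, 34.6 and 36.6 CPM in Ephb4 control bleomycin mice 1 to 4. It was 13.3, 38.4, 51.5, 38.3 and 18.1 CPM in Ephb4 CKO PBS mice 1 to 5 and 36.5, 7.43, 48.6 and 53.5 CPM in Ephb4 CKO bleomycin mice 1 to 4. Its group medians spanned only 29.3 to 51.9 CPM, and the spread within groups came mostly from single low libraries. The fold changes lay between -0.83 ± 0.78 (SE, bleomycin against PBS in Ephb4 control, adjusted p = 0.614 by edgeR) and 0.60 ± 0.78 (Ephb4 CKO against control after bleomycin, adjusted p = 0.654 by edgeR), and were -0.40 and 0.16 without Ephb4 control bleomycin mouse 1. Il18 lies at chr9:50554827-50581840 (plus strand).

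Il10, at chr1:131019845-131024974 (plus strand), was at or under 1.13 CPM in 15 of 17 libraries and had no counts in 3. The exceptions were Ephb4 CKO PBS mice 1 and 5, at 5.28 and 10.9 CPM (433 and 881 counts), which were also among the highest for Il1rn. The main edgeR fit left Il10 out. With a looser filter that kept 21009 genes, edgeR gave unadjusted p from 0.0647 to 0.447 for it over the 4 contrasts. The lowest was for Ephb4 CKO against control after PBS, at 3.37 ± 1.69 on the log2 scale (SE). Over the 4 contrasts, exact permutation tests gave p from 0.229 to 0.571.

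Per kilobase of exon, the median level over the 17 libraries ran from Il1a (45.6 CPM per kilobase) through Il18 (35.5), Il1rn (32.2), Il1b (14.3), Tnf (8.79), Lif (6.31), Il6 (2.5), Il33 (1.4) and Il11 (1.31) to Il10 (0.196). Each gene ranged more widely over libraries than it differed from its neighbours in this order. Il1b ranged 2220-fold and Il6 1390-fold between their lowest and highest libraries, against 26.3-fold for Lif and 44.2-fold for Il18. The order also changed with the group. In Ephb4 control bleomycin the median of Il1rn was 6.42 CPM per kilobase, below Il6 at 11.8, whereas in Ephb4 CKO bleomycin Il1rn was at 40.5 and Il6 at 2.03.

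Over the 17 libraries the cytokine genes formed sets that varied together. Of 45 pairs, 10 had a positive and 3 a negative correlation of log2 CPM with adjusted p under 0.05 by both Pearson's r and Spearman's rho (permutation tests with 100000 resamples, Benjamini-Hochberg over the 45). The permutations moved libraries across the 4 groups, so differences between groups and in cell content enter these p. Il1rn and Tnf were the closest pair, with r = 0.87 (adjusted permutation p = 3.00e-04), rho = 0.88 (adjusted permutation p = 9.00e-04) and r = 0.85 without the 2 libraries farthest from the median of Il1rn. Their r was 0.62 in the 11 series and 0.96 in the 12 series of animal numbers. Il11 and Lif had r = 0.79 (adjusted permutation p = 0.00127), rho = 0.73 (adjusted permutation p = 0.00913) and r = 0.64 without the 2 farthest libraries, with 0.96 and 0.50 in the number series. Il11 and Tnf ran in opposite directions, with r = -0.72 (adjusted permutation p = 0.0046), rho = -0.65 (adjusted permutation p = 0.0203), r = -0.63 without the 2 farthest libraries, and -0.98 and -0.39 in the number series. Il1a and Il1b had r = 0.85 in all but 0.09 within the 11 series, so that their relation did not hold there.

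**Figure D3:**
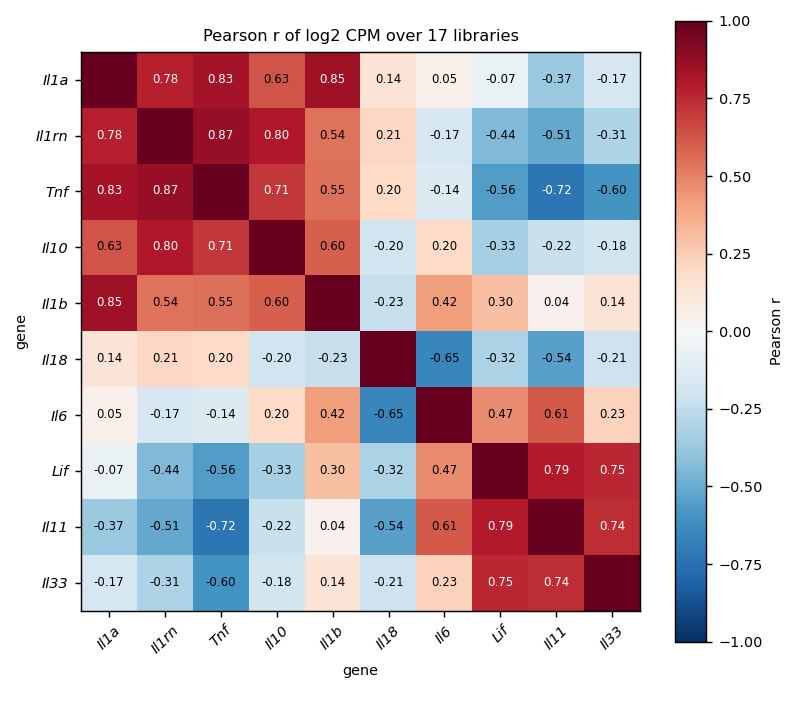
Each cell gives Pearson's r of log2 CPM over the 17 libraries for a pair of cytokine genes (both axes), on a colour scale from -1 to 1. Il1a, Il1rn, Tnf and Il10 form a block with r from 0.63 to 0.87, and Lif, Il11 and Il33 another with r from 0.74 to 0.79, while Tnf and Il11 stand at -0.72.

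Some of these genes also varied with the macrophage or fibroblast markers of the same libraries. Of 20 relations with the 2 scores, the following had adjusted p under 0.05 by both coefficients. With the macrophage score they were 3 of 10 (Il1rn and Tnf positive, Lif negative at r = -0.64 and rho = -0.61). With the fibroblast score they were 5 of 10 (Il6 and Il11 positive, Il1a, Il1rn and Tnf negative). Here too the permutations moved libraries across groups. Il1b, Il10, Il18 and Il33 passed with neither score, with r of -0.48 for Il33 and 0.74 for Il18 with the macrophage score. Lif had r = 0.40 with the fibroblast score. Il1rn had r = 0.68 and rho = 0.77 with the macrophage score (adjusted permutation p = 0.0043 and 0.0038), and r = 0.75 without the 2 farthest libraries. Within the number series the r was 0.78 and 0.44. Tnf had r = -0.71 and rho = -0.76 with the fibroblast score (adjusted permutation p = 0.00804 and 0.0038), and r = -0.65 without the 2 farthest libraries. In the number series it was -0.87 and -0.47. Il11 had r = 0.76 and rho = 0.70 with the fibroblast score (adjusted permutation p = 0.0043 and 0.011), r = 0.82 without the 2 farthest libraries, and 0.93 and 0.50 within the number series. Il6 had r = 0.66 and rho = 0.72 with it (adjusted permutation p = 0.014 and 0.0079), 0.66 without the 2 farthest libraries, and 0.85 and 0.52 within the number series.

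The fibroblast score was 8.17 to 8.97 in Ephb4 control bleomycin, above every other library (at most 7.88). The macrophage score of Ephb4 control bleomycin mouse 1 was 4.06, when all others were 6.99 or more. Leaving out the Ephb4 control bleomycin libraries, r with the fibroblast score was -0.17 for Il1rn, -0.52 for Tnf, 0.54 for Il6 and 0.81 for Il11. Of 12 macrophage markers, 12 were higher in Ephb4 CKO than in control after bleomycin (3 at an unadjusted p under 0.05, beside 20.2% of all genes), with a median log2 fold change of 1.11. Of 9 fibroblast markers tested, 9 were lower (2 at an unadjusted p under 0.05), with a median of -3.52, where the median of all genes was 0.01. The part of these marker differences in the cytokine values was not tested. The fits with the fibroblast score as a covariate cannot divide it from the group in contrasts with Ephb4 control bleomycin. The fibroblast scores of that group did not overlap those of any other library.

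**Figure D4:**
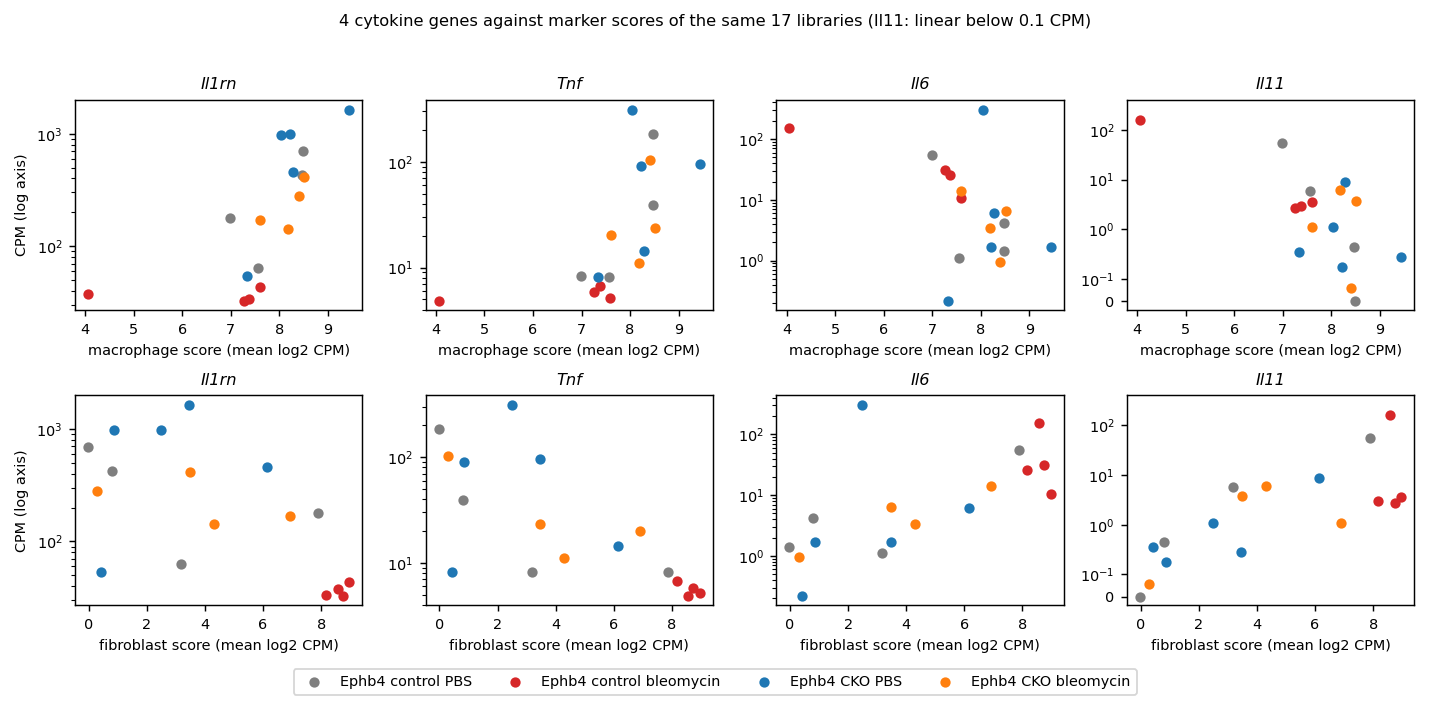
CPM of 4 cytokine genes (vertical axis, log scale, linear below 0.1 CPM for Il11) against the macrophage score in the upper panels and the fibroblast score in the lower panels (horizontal axes, mean log2 CPM of the markers), 1 point per library, coloured by group. The Ephb4 control bleomycin libraries lie at fibroblast scores of 8.17 to 8.97 with the lowest Il1rn and Tnf. Il11 tends to rise with the fibroblast score, but not among the highest scores. Ephb4 control bleomycin mice 2 to 4 held only 3.59, 2.94 and 2.72 CPM of it, below Ephb4 CKO PBS mouse 3 (8.85 CPM at a score of 6.15).

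Other genes of these pathways were read from lists of receptors, processing and neutralizing factors, signal transducers, targets and feedback genes, and further cytokines. No gene of these lists reached an adjusted p of 0.05 by edgeR. Of 12 receptors tested (14 listed), 3 passed an unadjusted p of 0.05 for Ephb4 CKO against control after bleomycin, beside 20.2% of all genes, and 1 for bleomycin against PBS in Ephb4 control, beside 14.3%. Il6st, the gp130 chain used by IL-6, IL-11 and LIF, was 347 ± 132 CPM (SD) in Ephb4 control bleomycin, 98.4 ± 54.3 CPM in Ephb4 control PBS and 130 ± 79.7 CPM in Ephb4 CKO bleomycin. Its log2 fold changes were 1.82 ± 0.45 (SE, adjusted p = 0.268 by edgeR) for bleomycin in Ephb4 control and -1.41 ± 0.44 (adjusted p = 0.204 by edgeR) for Ephb4 CKO after bleomycin. Il11ra1, the receptor of IL-11, ran the other way, at 107 ± 38.4 CPM (SD) in Ephb4 CKO and 36.5 ± 15.8 CPM in control after bleomycin (1.55 ± 0.53, adjusted p = 0.21 by edgeR). Tnfrsf1b, a TNF receptor, was 377 ± 183 CPM and 132 ± 54.7 CPM in the same groups. The median log2 fold change of the receptors in that contrast was 0.42, against 0.01 over all genes.

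All 7 processing and neutralizing genes were higher in Ephb4 CKO than in control after bleomycin (2 at an unadjusted p under 0.05, beside 20.2% of all genes, median log2 fold change 1.19), and all 7 were lower in bleomycin than PBS in Ephb4 control (2 at an unadjusted p under 0.05, beside 14.3%, median -1.06, against -0.06 over all genes). Pycard, the inflammasome adaptor, was 81.4 ± 35.1 CPM (SD) in Ephb4 CKO bleomycin, 26.9 ± 12.5 CPM in Ephb4 control bleomycin and 82 ± 46.2 CPM in Ephb4 control PBS. Casp1, the protease that cleaves pro-IL-1β and pro-IL-18, was 41.5 ± 9.35 CPM against 13.9 ± 8.77 CPM after bleomycin (1.58 ± 0.76 on the log2 scale, adjusted p = 0.25 by edgeR). Adam17, which sheds TNF from the cell surface, was 225 ± 93.7 CPM against 98.9 ± 31.2 CPM (1.19 ± 0.43, adjusted p = 0.215 by edgeR).

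Of 21 signal transducers, 17 were higher in Ephb4 CKO than in control after bleomycin, 6 of them and 1 lower gene at an unadjusted p under 0.05 (beside 20.2% of all genes), with a median of 0.40. Ikbkb, a kinase of the NF-κB pathway, was 68.2 ± 8.99 CPM (SD) against 45.6 ± 8.23 CPM, and Tyk2, a JAK kinase, was 54.2 ± 9.75 CPM against 30.3 ± 9.06 CPM. Of 10 target and feedback genes tested, 6 were higher in Ephb4 CKO and 0 passed an unadjusted p of 0.05 in that contrast. Socs3, the feedback inhibitor of gp130 signalling, was 19.8 ± 9.41 CPM in Ephb4 CKO and 54.2 ± 21.5 CPM in control (-1.45 ± 0.81, adjusted p = 0.298 by edgeR), with no overlap between the groups, as in 23.1% of all genes tested. Tnfaip3, a feedback inhibitor of NF-κB, was 31.5 ± 15.1 CPM in Ephb4 control bleomycin and 97.2 ± 32.1 CPM in Ephb4 control PBS (-1.63 ± 0.51, adjusted p = 0.292 by edgeR). In Ephb4 CKO bleomycin it was 65.1 ± 17.4 CPM, higher than in control after bleomycin (1.05 ± 0.51, adjusted p = 0.252 by edgeR), with overlapping groups. Of 18 further cytokines only 6 passed the filter, and none of them had an unadjusted p under 0.05 in either contrast.

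The genes whose log2 CPM followed each cytokine most closely over the 17 libraries are given as a description, since depth, cell content and group are shared by all points. For Tnf they were Nfkbie (r = 0.98), an inhibitor of NF-κB, Tm2d1 (0.96) and Acod1 (0.96), the itaconate-producing enzyme of activated macrophages. For Il1rn they were Plekhn1 (0.95), the leukocyte antigen Cd52 (0.92) and the transcription factor Egr2 (0.92). Il1a was nearest to the chemokine Ccl3 (0.94), Il20rb (0.92) and Cry1 (0.92), and Il1b to Syt7 (0.92), the neutrophil chemokine Cxcl3 (0.89) and Txndc12 (0.89). Il6 was nearest to the LIF receptor Lifr (0.91), Gstm2 (0.91) and the complement protease C1s1 (0.91). Il11 followed Spry4 (0.93), Tgif2 (0.93) and Uaca (0.92), and Lif followed Ttc9 (0.92) and B4galt3 (0.90). Il33 was nearest to B4galt1 (0.91), Lratd1 (0.90) and Efna1 (0.88), and Il18 to Gpcpd1 (0.96), Nup210 (0.96) and Slc16a6 (0.95).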

How the data were processed

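Total RNA-seq libraries of 17 mouse lung cell cultures were analysed from the gene counts deposited by the authors, in which whole-number counts per GENCODE gene had been made without normalization. Per the labels and the study's methods, libraries were stranded, trimmed with Cutadapt (1.18 in the submitters' processing notes), aligned to GRCm38 with HISAT2 2.1.0 and assembled with StringTie, whose count script estimates counts from coverage, so that multi-mapped and overlapping reads are not resolved further. The study fitted a batch term. The labels do not say which library was in which sequencing run, so no batch term was used. As stand-ins, the animal number series (11 or 12) and the 2 sorted runs of columns in the table (8 and 9 libraries) were tried as covariates.

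Genes above 10 CPM in at least 2 libraries were kept (10481 of 55421). All 4 groups were fitted with edgeR 4.0.16 (quasi-likelihood test, TMM) in R 4.3.3, with p adjusted by Benjamini-Hochberg over all genes kept. CPM are counts over library totals multiplied by their TMM factors (0.7443 to 1.299), while the filter used plain totals. Exact 2-sided permutation tests used log2 CPM with a prior count of 2. DESeq2 1.42.0, limma 3.58.1 voom, other normalizations, filters, covariates and each mouse left out were the alternatives. The edgeR script was tested on simulated counts. Replicates of a group differed by more than sampling noise in all 28 pairs. Nothing says whether p reflects more than the spread between these mice and cultures.

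The cytokine genes and the gene lists were chosen with earlier results of these data known. The genes named were all 10 cytokine genes, Ephb4, up to 3 genes with the smallest p from each pathway list in 2 comparisons, and the 3 genes most correlated with each cytokine gene, of which 1 is not reported here. Promoters were taken from RefSeq (GRCm38.p6), which matched 9 of the 10 genes by symbol. Il10 had no entry and proteins were not used here.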

Additional observations from a re-analysis of the deposited data

Results flagged for a closer look

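Dixon's test on the log2 CPM scale was applied to 40 groups of values (10 cytokine genes in 4 groups). In 3 of these 40 a library stood far from the others of its group. That is near the share of about 1 in 20 expected by chance. Il11 in Ephb4 control bleomycin mouse 1 stood at 158 CPM. Il18 in the same mouse stood at 1.26 CPM, the lowest of all 17 libraries. Il18 in Ephb4 control PBS mouse 3 stood at 11.9 CPM. These mice also held the highest Lif of their groups, at 120 and 94.1 CPM, and had macrophage scores of 4.06 and 6.99, the lowest of the 17 libraries.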

How the results depend on the processing

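With edgeR no cytokine gene passed an adjusted p of 0.05 in any comparison, nor in any fit that left out 1 mouse (0 to 0), while DESeq2 called 2 (Il1rn, Tnf) for bleomycin in Ephb4 control and 1 (Il1rn) for Ephb4 CKO against control after bleomycin, and 1 (Il1rn) in each with the column runs as a covariate. Outlying counts left DESeq2 without a p for Il1b, Il6 and Il11 in several comparisons. The numbers of genes with an unadjusted p under 0.05 moved as follows, and the cause was not tested. For bleomycin in Ephb4 control (3), the number series, macrophage score or fibroblast score as a covariate left 1, and leaving out 1 mouse gave 1 to 4. For Ephb4 CKO against control after bleomycin (2), fitting only the groups compared gave 4, limma, sex, the number series or the fibroblast score gave 1, the macrophage score gave 0, and leaving out 1 mouse gave 1 to 4. For Ephb4 CKO against control after PBS (0), the number series gave 1 and leaving out 1 mouse gave 0 to 2. For bleomycin in Ephb4 CKO (2), upper quartile scaling, the number series, the macrophage score or the column runs left 1, and limma, only the groups compared, sex, or omission of the 3 libraries of discordant sex genes left 0, with 0 to 3 without 1 mouse. The interaction gave 0 to 1 without 1 mouse.

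Of 560 recomputed values of named genes, 466 kept their direction and side of an unadjusted p of 0.05, 51 lost it, 24 gained it and 19 reversed. For Ephb4 CKO against control after bleomycin, Il1a was -0.15 with the fibroblast score, Il11 was 1.69 with the macrophage and 0.57 with the fibroblast score, Lif was 0.30 with the macrophage score, and Il18 was -0.63 with the macrophage and -0.34 with the fibroblast score. For bleomycin in Ephb4 control, Il6 was -1.07 with the number series, and Il18 was 0.01 with the macrophage and 0.24 with the fibroblast score. For Ephb4 CKO against control after PBS, Il6 was -0.62 with the number series, and leaving out 1 mouse gave -2.72 to 4.83 for Il6 and -0.89 to 4.61 for Il1b, each lower value without Ephb4 CKO PBS mouse 1, as well as -0.08 to 1.96 for Il1a (lowest without the same mouse) and -5.00 to 0.05 for Il11 (highest without Ephb4 control PBS mouse 3). For bleomycin in Ephb4 CKO it gave -4.13 to 1.37 for Il6 and -6.38 to 0.14 for Il1b, each higher value without Ephb4 CKO PBS mouse 1, and -2.13 to 2.22 for Il33, lowest without Ephb4 CKO bleomycin mouse 3. Il33 was -0.45 there with limma, and the mean log2 CPM of Il6 differed by 0.01 with a prior count of 0.5. No paired analysis was possible because the labels give no replicate numbers and no animal number occurs in both groups of any comparison. The 2 animal numbers that do recur join Ephb4 control PBS with Ephb4 CKO bleomycin and Ephb4 control bleomycin with Ephb4 CKO PBS, and nothing says what a shared number means. With 4 mice against 4 the exact permutation p cannot go below 0.0286, and the edgeR coefficient of variation between replicates was 0.557.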
